A study of Mus musculus with 6 samples.

Results

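The 76 gene symbols described here are those of the cytosolic ribosomal proteins, the protein parts of the ribosome that translates nuclear mRNAs. They were chosen by name alone, though with earlier results of these data known. Taken were the array symbols that start with Rps or Rpl and a number together with those of the P-stalk proteins, without ribosomal S6 kinases and pseudogenes. They had 130 probes, of 45281 probes and 31508 gene symbols on the array. Of the 76, 73 genes with 112 probes were above background and were tested, among 11972 genes and 16214 probes in all. These were 28 small-subunit genes, 43 large-subunit genes and 2 paralogs (*Rps27l* and *Rpl36al*). Among RefSeq genes on GRCm38.p6, 75 of the 76 symbols are current, *Rps3a* is an older name of *Rps3a1*, and the genes lie on 19 chromosomes with 4 of them on X. Their mRNA was measured in tubes of cortical bone. These are hollow shafts of tibia and femur from mice, flushed free of marrow and digested with collagenase and trypsin to strip cells off their surfaces. Tubes from C57BL6 mice, 3 months old by the labels, were kept overnight in culture and then for 24 hours without treatment (control, 3 arrays) or with 250 nM parathyroid hormone fragment PTH 1-34 (PTH, 3 arrays). RNA of each preparation was pooled over several mice, so an array is a pool and not an animal.

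Each cytosolic ribosome holds a single copy of nearly every one of these proteins, and cells make them in balance with each other and with ribosomal RNA. Most of their mRNAs begin with a C and a run of pyrimidines, a 5′ terminal oligopyrimidine (TOP) tract, through which mTOR signalling sets their translation with little change in mRNA amount. PTH acts on osteocytes and osteoblasts through a receptor coupled to cAMP, and several ribosomal protein genes are used as reference genes when such responses are measured by quantitative PCR.

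Between 34.2% and 38.4% of all probes were above background on each array. Of all genes tested, 1.73% were called at an adjusted p under 0.05 in either direction. Among marker lists for the cells that the tubes can hold, 4 of 14 tested osteocyte and osteoblast genes were called lower with PTH. Red-cell genes were called lower for 2 of 4, with a summed log2 level of 13.07 to 13.29 on control arrays and 11.22 to 11.38 on PTH arrays. Neutrophil and myeloid genes were called lower for 7 of 11, with sums of 15.77 to 15.79 on control arrays and 15.12 to 15.3 on PTH arrays, and osteoclast genes were called higher for 3 of 5. The part of a changed cell mixture in the values below was not tested. In pooled tissue, fewer cells of a type and less RNA per cell cannot be told apart.

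No ribosomal protein gene passed the test between PTH and control. With limma and Benjamini-Hochberg adjustment over all probes tested, 0 of 73 had an adjusted p under 0.05, against 1.73% of all genes tested (207 of 11972). At an unadjusted p under 0.05, 3 of 73 were higher with PTH (4.11%, against 7.51% of all genes) and 1 was lower (1.37%, against 7.38% of all genes). The log2 fold change was positive for 31 of the 73 and negative or 0 for 42, with *Rplp1* at 0. The median log2 fold change was -0.02, with quartiles of -0.09 and 0.06, beside a median of 0.01 and quartiles of -0.16 and 0.17 over all genes. Small-subunit genes had a median of -0.03 and large-subunit genes a median of -0.01. The smallest and largest changes among the 73 were -0.30 and 0.38, whereas all genes spanned -2.74 to 2.43.

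**Figure D1:**
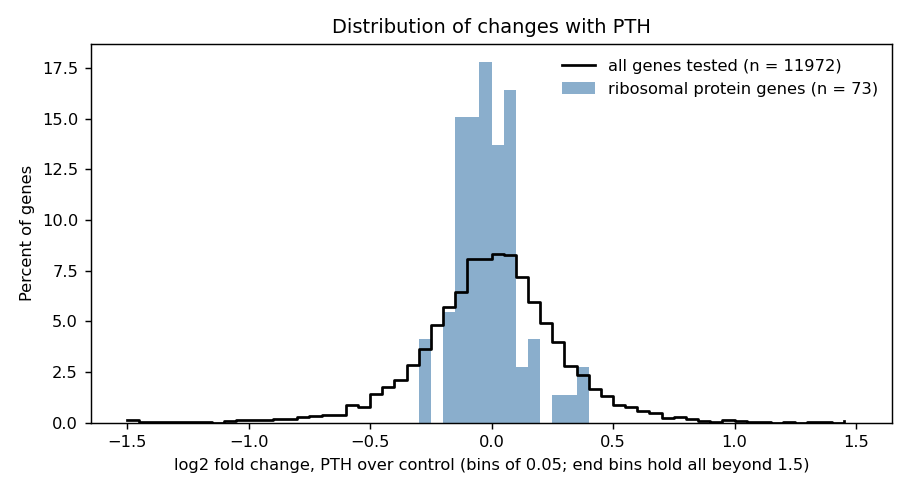
Percent of genes (vertical axis) by log2 fold change with PTH (horizontal axis, bins of 0.05), for the 73 ribosomal protein genes (bars) and all 11972 genes tested (line). The ribosomal protein genes lie between -0.30 and 0.38 around a median of -0.02.

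On the normalized values the limits on an undetected change were narrow for most of these genes. Quantile normalization gives probes of equal rank equal values, and many of these genes rank near the top. The SD between arrays of a group had a median of 0.0893 on the log2 scale over the 73 genes and 0.193 over all genes. The sets differ in brightness. The median log2 signal of an array was 13.70 to 13.76 for the 73 genes and 7.17 to 7.19 for all genes. The parts of brightness and of quantile normalization in the smaller SD were not tested. The 95% interval of the change lay inside 1.5-fold either way for 67 of 73 genes and inside 2-fold for 72. The SE of the change had a median of 0.12 on the log2 scale. The 6 genes whose interval passed 1.5-fold were *Rpl14*, *Rpl36*, *Rpl36a*, *Rpl24*, *Rps24* and *Rps3a*. *Rps3a*, a small-subunit protein of the platform, had the widest, from 0.778-fold to 2.18-fold. *Rpl14* was above background on all 3 control arrays but on 2 of 3 PTH arrays, and its interval ran from 0.568-fold to 1.18-fold.

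**Figure D2:**
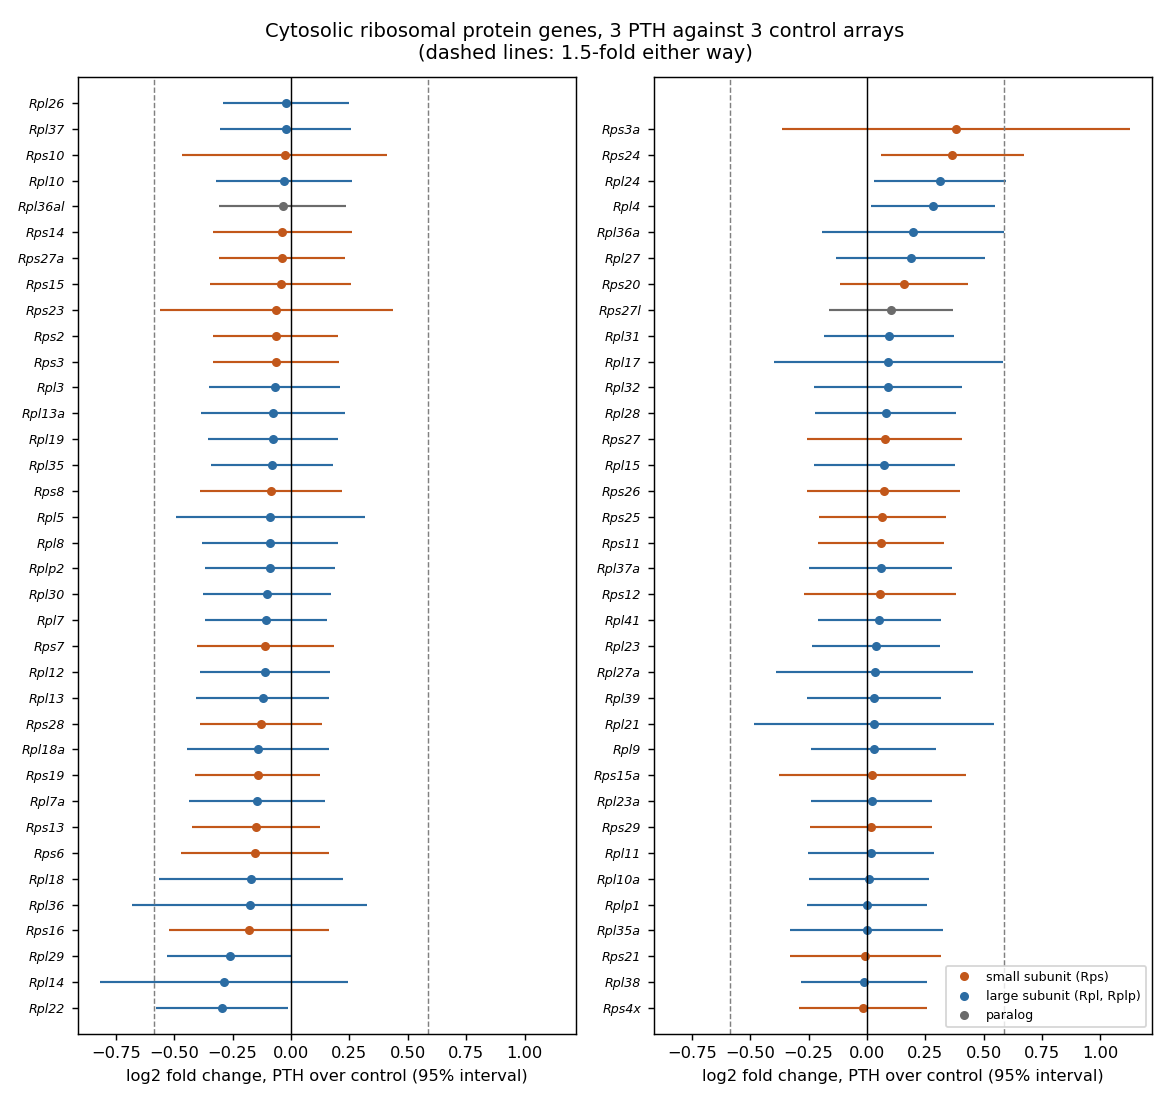
Log2 fold change with PTH over control (points, horizontal axis) and its 95% interval (lines) for 71 of the 73 ribosomal protein genes, ordered by change and coloured by subunit. The dashed lines mark 1.5-fold either way, and the intervals of 65 of the 71 stay between them.

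The PTH arrays all lay above the control arrays for 4 of 73 genes (5.48%, against 11.1% of all genes), and these had no adjusted p under 0.05. *Rps24*, a small-subunit protein needed to process the small ribosomal RNA, had log2 signals of 13.28, 13.15 and 13.45 on control arrays and 13.76, 13.58 and 13.64 on PTH arrays. Its log2 fold change was 0.37 ± 0.13 (SE, n = 3 and 3; limma adjusted p = 0.255). The gap between the groups was smaller than the spread of the control arrays. *Rpl24*, a large-subunit protein, gave 13.64, 13.63 and 13.55 on control arrays and 13.97, 13.99 and 13.79 on PTH arrays, with a log2 fold change of 0.31 ± 0.12 (limma adjusted p = 0.286). *Rpl4*, which lines the exit tunnel for the new peptide, gave 9.37, 9.50 and 9.49 on control arrays and 9.76, 9.72 and 9.73 on PTH arrays, with a log2 fold change of 0.28 ± 0.12 (limma adjusted p = 0.311). Its PTH arrays were close together and clear of the control arrays. The call of *Rps24* depended on the background correction. Without background correction its log2 fold change was 0.36 with an adjusted p = 0.041 by limma, under a setting that called 588 genes in all.

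All PTH arrays lay below all control arrays for 8 of 73 genes (11%, against 10.8% of all genes), again with no adjusted p under 0.05. *Rpl22*, a large-subunit protein that T-cell development needs in mice, gave 9.18, 9.35 and 9.15 on control arrays and 9.01, 8.86 and 8.92 on PTH arrays. Its log2 fold change was -0.30 ± 0.12 (limma adjusted p = 0.32), and the groups were separated by less than the spread within the control group. *Rpl29*, a large-subunit protein whose loss makes mice smaller, gave 13.46, 13.46 and 13.41 on control arrays and 13.19, 13.10 and 13.25 on PTH arrays, with a log2 fold change of -0.26 ± 0.12 (limma adjusted p = 0.349). Here the gap between the groups was wider than the spread of the control arrays. *Rps13* and *Rps19*, of the small subunit, had log2 fold changes of -0.15 and -0.14. Further genes without overlap were *Rps28*, *Rpl7* and *Rpl35*, with log2 fold changes of -0.13, -0.11 and -0.08.

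**Figure D3:**
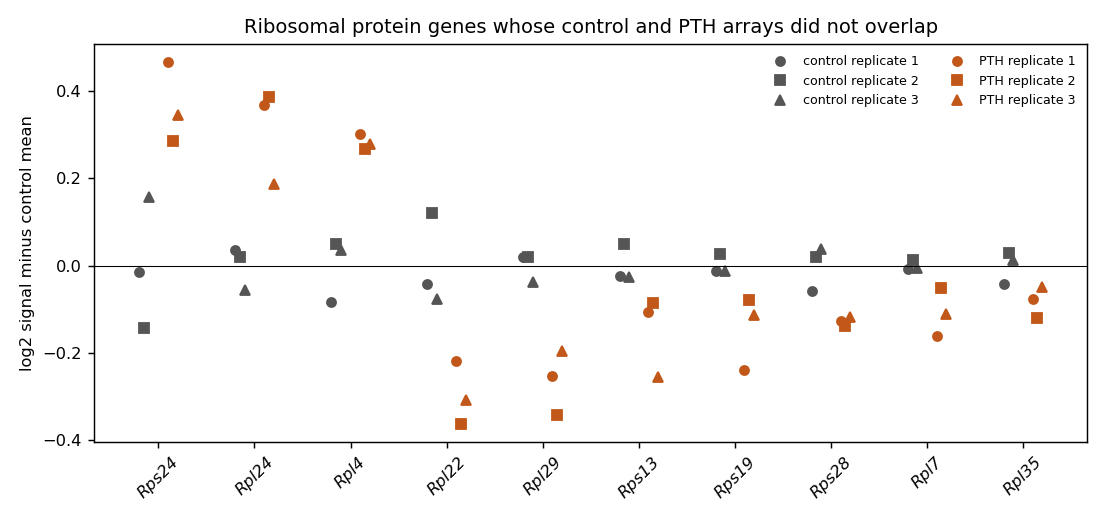
Log2 signal of each array minus the control mean (vertical axis) for 10 of the ribosomal protein genes whose control (grey) and PTH (orange) arrays did not overlap. Circles, squares and triangles are replicates 1, 2 and 3, and no gene here had an adjusted p under 0.05.

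By role, no group of ribosomal proteins held a called gene. The P-stalk recruits the elongation factors to the ribosome. Its proteins *Rplp1* and *Rplp2* had log2 fold changes of 0.00 and -0.09, and *Rplp0*, which the array lists under its older name *Arbp* and which the choice by name therefore left out, had 0.02 ± 0.12. The value of *Rplp1* carries a limit from its rank, which other very bright probes share in part. Its brightest probe was the brightest or second brightest on every array, with unnormalized signals of 48880.5, 53956.8 and 51004.3 on control arrays and 50201.6, 50102.8 and 54444.7 on PTH arrays, and quantile normalization gives probes of equal rank equal values. The normalized signals of 15.65, 15.65 and 15.61 were therefore the same in both groups. With cyclic loess in place of quantile normalization the log2 fold change was -0.18 (limma adjusted p = 0.638). The brightest probe of *Rps2* had a normalized signal of 15.49 on control arrays 1 and 3 and on PTH arrays 1 and 3. Its unnormalized signals there were 45562, 43515.3, 41186.2 and 52666.1.

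*Rpl5* and *Rpl11*, which outside the ribosome bind Mdm2 and so stabilize p53, had log2 fold changes of -0.09 ± 0.17 and 0.02 ± 0.12. Diamond-Blackfan anaemia arises from the loss of one copy of single ribosomal protein genes. Of the 10 such genes on a chosen list, which is not a full one, 0 were called in either direction (against 1.73% of all genes). The median log2 fold change of these 10 was -0.01. They ran from *Rps19*, at -0.14, to *Rps24*, at 0.37. Those between them included *Rps7* at -0.11, *Rpl5*, *Rps10* at -0.03, *Rpl26* at -0.02, *Rpl35a* at -0.00, *Rpl11* and *Rps26* at 0.07. The paralogs *Rps27l*, a p53 target, and *Rpl36al* had log2 fold changes of 0.10 and -0.04. *Rps6*, the substrate of S6 kinase downstream of mTOR, had -0.15 ± 0.14 by its brightest probe.

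None of the ribosomal protein genes in common use as PCR references was called. *Rpl13a* gave 11.33, 11.39 and 11.24 on control arrays and 11.29, 11.07 and 11.37 on PTH arrays, with a log2 fold change of -0.08 and a 95% interval of -0.38 to 0.23. The groups overlapped. *Rpl19*, *Rpl32* and *Rps29* had log2 fold changes of -0.08, 0.09 and 0.02, and their groups overlapped too. The fifth tested, *Arbp*, is given above, and *Rps18*, a further common reference, was not tested, since 1 of its 2 probes was above background on 2 PTH arrays only and the other on no array. Of 9 reference genes outside the ribosome, 0 were called (against 1.73% of all genes), with a median log2 fold change of 0.09.

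Different probes of a gene often gave different signs. For 31 genes more than 1 probe was tested, 70 probes in all, and in 18 of the 31 the probes had log2 fold changes of both signs. The median spread between the highest and the lowest probe of a gene was 0.15, and it passed 0.3 in 5 genes. The other 2 probes of *Rps24* had log2 fold changes of 0.01 and -0.17. On the first of these, the control arrays gave 6.65, 6.16 and 6.84 and the PTH arrays 6.67, 6.42 and 6.60, so that the groups overlapped. The second probe of *Rpl24* gave 12.93, 13.11 and 13.05 on control arrays and 13.02, 13.06 and 12.96 on PTH arrays, again with overlap. The change of 0.31 at the brighter *Rpl24* probe and -0.02 at this one came from the same RNA. A further probe of *Rps6* was at 0.37 where the brightest was at -0.15, and the 4 probes of *Rpl21* ran from -0.55 to 0.10. *Rpl27*, with 0.19 and -0.17, was the remaining gene of the 5.

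**Figure D4:**
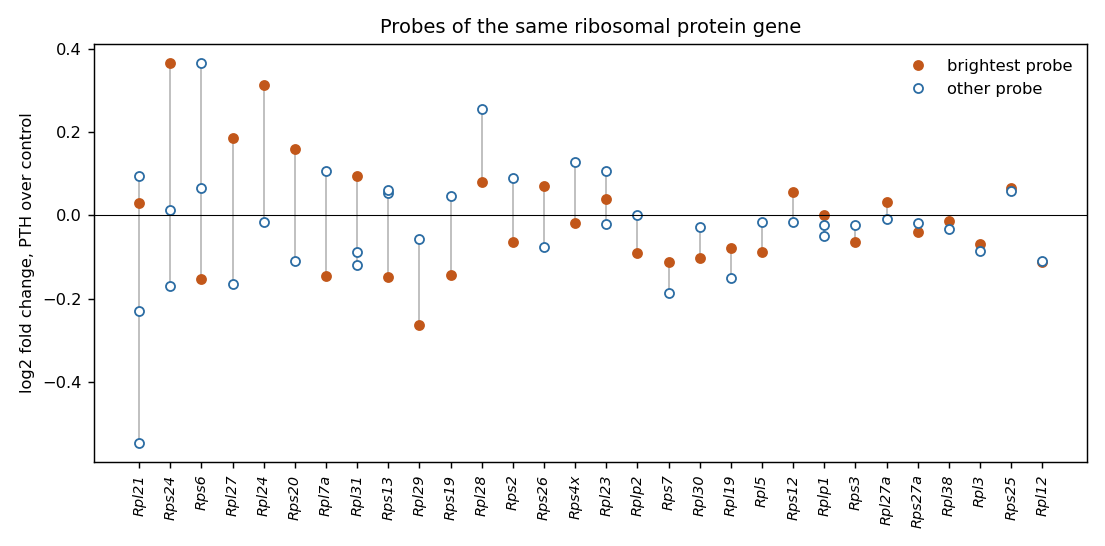
Log2 fold change with PTH (vertical axis) for every tested probe of 30 ribosomal protein genes with more than 1 probe, ordered by spread. Filled points are the brightest probe of each gene and open points its other probes, and in 17 genes the points fall on both sides of 0.

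Many of these genes have processed pseudogenes, copies that a short probe can also match. The RefSeq table lists 303 pseudogenes named after 59 of the 76 genes, up to 24 for *Rpl31*. Probe sequences were not used here, so the share of each signal that comes from such copies was not measured.

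With quantile normalization, median scaling and cyclic loess, more of these genes separated the arrays by replicate number 3 than by treatment, in a direction that depended on the scaling. The control array and the PTH array numbered 3 were both above the other 4 arrays for 22 of 73 ribosomal protein genes (30.1%, against 9.14% of all genes). They were both below the others for 6 of 73 (8.22%, against 9.81% of all genes). *Rps3a* had log2 signals of 9.60, 9.50 and 10.37 on control arrays and 10.12, 9.71 and 10.80 on PTH arrays. Both its highest arrays were those numbered 3, by 0.85 on the log2 scale on average, beside a PTH difference of 0.38. At its brightest probe, *Rpl21* gave 11.67, 11.65 and 12.07 on control arrays and 11.54, 11.66 and 12.28 on PTH arrays. At this probe the number divided the arrays and the treatment did not. *Rps23*, a protein of the decoding centre, gave 11.49, 11.26 and 11.85 on control arrays and 11.14, 11.46 and 11.81 on PTH arrays. *Rpl36* and *Rps10* also had arrays numbered 3 above the others, by 0.49 and 0.44. When the model held a coefficient for array number 3, this coefficient passed an adjusted p of 0.05 for 0 ribosomal protein genes and 0 genes in all, and for *Rps3a* its adjusted p was 0.406 by limma.

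For 43 of the 73 genes the difference between the arrays numbered 3 and the rest was larger in size than that between PTH and control (58.9%, against 47.2% of all genes). The array numbered 3 was above the mean of the other two in both groups for 33 of 73 (45.2%, against 28.6% of all genes) and below it in both for 18 (24.7%, against 33% of all genes). The 6 genes with both arrays lowest were *Rpl10*, *Rpl15*, *Rpl30*, *Rpl36al*, *Rplp1* and *Rps15a*. For *Rplp1* this followed from its rank under quantile normalization, since its highest unnormalized signal, 54444.7, was on the PTH array numbered 3. *Rps15a* had unnormalized signals of 147 to 185.4, close to the array medians of 111.3 to 128.9. Of the 10 listed Diamond-Blackfan genes, 5 were among the 22 (50%, against 30.1% of the 73 and 9.14% of all genes). Of 9 further probes of genes among the 22, 3 also had both arrays numbered 3 above the rest, and 6 had a difference above 0. Those below 0 were probes of *Rpl21* (-0.27 and -0.20) and *Rps26* (-0.10, with both arrays lowest). With cyclic loess in place of quantile normalization the count of 22 was 26. It depended more on median scaling, under which it was 48 of 73 beside 34.5% of all genes, and, once each array was centred on the median of the tested genes, 13 higher (against 7.02% of all genes) and 16 lower (against 14.4%). These arrays also had the most probes above background, 17369 and 17374 beside 15504 to 16451 on the others. The labels give no shared preparation, day or slide for a replicate number, and what the arrays numbered 3 share was not tested.

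**Figure D5:**
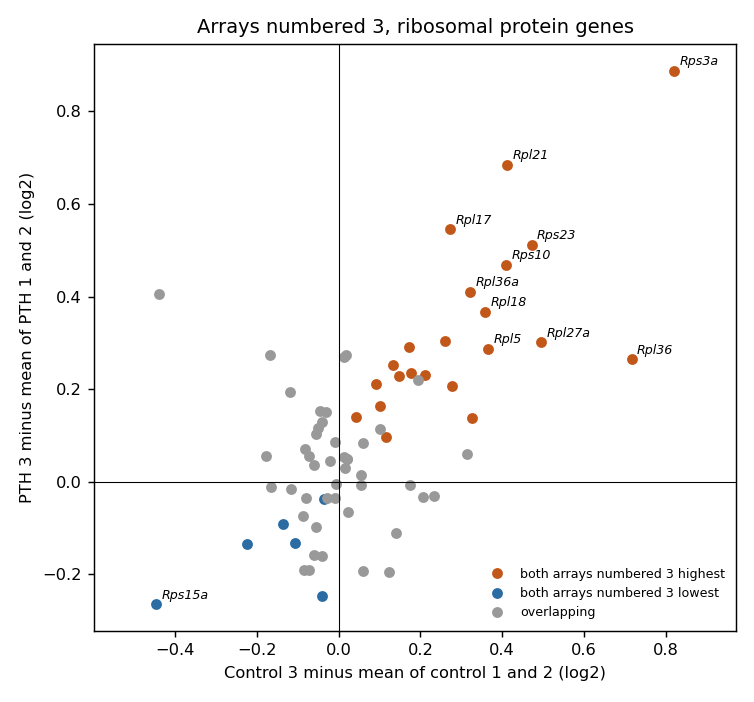
Array numbered 3 minus the mean of the other arrays of its group, for control (horizontal axis) and PTH (vertical axis), in log2 units, with a point for each of the 73 ribosomal protein genes. After quantile normalization, orange points are the 22 genes with both arrays numbered 3 highest, with *Rps3a* at the top right, and blue points the 6 with both lowest.

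Several short sequence features, which the choice by name did not use, were more frequent at the starts of these genes than over all promoter entries. None stood at most of these starts. RefSeq promoters on GRCm38.p6 (250 bases before to 50 after the annotated start) were on hand for 55 of the 76 genes, as 66 entries because some genes have several starts. On either strand the ETS-factor word CCGGAAG was in 34.8% of them and in 8.9% of all 32851 promoter entries. The palindrome TCTCGCGA was in 16.7% beside 1.0%, and the YY1 word AAGATGG in 16.7% beside 6.3%. The full CRE TGACGTCA, the word bound by the cAMP-responsive factor CREB, was in 6.1% (4 of 66 entries) beside 1.8%. The word TATAAA was in 7.6% beside 13.6%. A TOP-like tract, a C within 5 bases of the annotated start followed by at least 4 more pyrimidines, stood at 40.9% of the starts beside 18.3% of all. The reverse complement of the ETS word can overlap such a tract. The 25 tested genes with a tract had a median log2 fold change of -0.01, and the 27 without had -0.02. The following lines give 30 bases across a single annotated start per gene, on the gene's strand and with the tract in capitals. Genes with a tract come first, and then the 3 others with an unadjusted p under 0.05.
Rps24, chr14:24490668-24490697, plus strand: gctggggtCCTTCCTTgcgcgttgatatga
Rps6, chr4:86857348-86857377, minus strand: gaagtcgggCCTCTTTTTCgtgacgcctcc
Rpl13a, chr7:45128726-45128755, minus strand: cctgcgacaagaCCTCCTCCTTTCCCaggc
Rps10, chr17:27635225-27635254, minus strand: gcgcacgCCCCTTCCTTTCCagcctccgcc
Rpl27a, chr7:109519185-109519214, plus strand: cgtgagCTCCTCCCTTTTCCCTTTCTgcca
Rpl35, chr2:39005112-39005141, minus strand: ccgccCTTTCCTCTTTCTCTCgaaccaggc
Rpl24, chr16:55966265-55966294, plus strand: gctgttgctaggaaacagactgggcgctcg
Rpl4, chr9:64173377-64173406, plus strand: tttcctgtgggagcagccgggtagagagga
Rpl22, chr4:152325716-152325745, plus strand: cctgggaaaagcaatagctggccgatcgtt
The tracts of *Rpl27a*, *Rpl35* and *Rps10* ran to 20, 16 and 13 bases, and that of *Rps24* to 8. *Rpl27a* had a log2 fold change of 0.03 and *Rps10* one of -0.03, and both were among the 22 genes highest on the arrays numbered 3. *Rpl24*, *Rpl4* and *Rpl22* had no tract at the annotated starts listed. The start shown for *Rpl22* is the downstream one, and its upstream start, at chr4:152324426-152324455, had no tract either. A second start of *Rps24*, at chr14:24490743-24490772, is not shown and had no tract. A match or its absence describes these letters in this window only, since annotated starts can differ from those in use.

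The other genes of the translation apparatus, from lists chosen with earlier results of these data known, held few called genes. Of all genes tested, 1.73% were called. At that share, lists this short would hold few called genes or none, so the counts of 0 below say little. Of 67 mitochondrial ribosomal protein genes 0 were called, with a median log2 fold change of 0.10 and the largest change at *Mrpl16* (0.57, limma adjusted p = 0.213). A list of 36 tested genes with symbols that begin with Eif held initiation factors and some other genes, such as *Eif2c2*, *Eif2ak1* and *Eif4ebp1*. Of these 36, 1 was called, *Eif2s3y*, a Y-linked subunit of the initiation factor that brings the initiator tRNA. With PTH it fell by 1.49 on the log2 scale (limma adjusted p = 0.00926), from 6.12, 6.57 and 6.33 to 4.83, 5.11 and 4.62. Its probe was above background on all 3 control arrays but on 1 of 3 PTH arrays, so the size of the fall is uncertain. *Ddx3y*, also Y-linked and looked up after this value was seen, gave 8.29, 8.58 and 8.55 on control arrays and 8.84, 8.36 and 8.80 on PTH arrays, with overlap and an adjusted p = 0.663 by limma. *Xist*, which is X-linked and was looked up with it, gave 9.44, 9.48 and 9.31 on control arrays and 9.79, 9.77 and 9.73 on PTH arrays. Its PTH arrays all lay above the control arrays, with a log2 fold change of 0.35 (limma adjusted p = 0.216).

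Of 6 elongation factor genes 0 were called, and the largest change was at *Eef2*, the translocase and itself a TOP mRNA, with -0.33 ± 0.13 (limma adjusted p = 0.279). Of 15 TOP mRNAs outside these proteins, *Eef2* and *Fau* among them, 0 were called and the median log2 fold change was -0.02. Of 23 ribosome assembly genes 0 were called (median -0.04), with the largest change at *Noc2l* (-0.43, limma adjusted p = 0.189), and 6 of the 23 (26.1%, against 9.14% of all genes) had both arrays numbered 3 highest. That share was 16.4% for the mitochondrial ribosome, 11.1% for the genes with Eif symbols and 0% for elongation factors. Of 9 genes of RNA polymerase I and its factors 0 were called (against 1.73% of all genes). The largest change was at *Ubtf*, which binds the ribosomal RNA genes, with -0.32. Of 14 regulators 0 were called. Among these *Igf1*, a growth factor upstream of mTOR, was at -0.61 (limma adjusted p = 0.166), *Myc*, an activator of ribosome production, at -0.41, and *Ddit4*, an inhibitor of mTOR complex 1, at 0.40.

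As a share of signal the ribosomal protein probes did not separate the groups. After background correction and before normalization they held 14, 13.8 and 13.9% of the summed signal on control arrays (13.9% ± 0.1, SD, n = 3) and 14.1, 13.2 and 13.3% on PTH arrays (13.5% ± 0.493, SD, n = 3), and the groups overlapped. Between 19 and 22 of the 50 brightest probes on each array were theirs. The 3 genes that were not tested were *Rpl3l*, the striated-muscle paralog of *Rpl3*, and the core members *Rpl6* and *Rps18*. Their unnormalized signals ran from 96.1 to 138.7 over all arrays, whose medians ran from 111.3 to 128.9. *Rpl6* was above background on no array. Probes this close to background give at best a bound, and nothing follows from it about the mRNA of *Rpl6* or *Rps18* in these bones.

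Ribosomal proteins outside the choice by name were not called either. *Fau*, a fusion of a ubiquitin-like protein with the small-subunit protein Rps30, gave 13.36, 13.42 and 13.24 on control arrays and 13.13, 13.13 and 12.91 on PTH arrays, without overlap and with a log2 fold change of -0.28 (limma adjusted p = 0.363). Under older names the array also lists *Rps9* and *Rpl34*, with log2 fold changes of -0.06 and -0.25 (limma adjusted p = 0.869 and 0.687). *Rpl34* had 12.77, 12.77 and 13.16 on control arrays and 12.38, 12.45 and 13.13 on PTH arrays, with overlap and with both arrays numbered 3 highest in their groups.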

How the data were processed

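The values that the authors deposited are probe intensities on a linear scale from an Illumina mouse bead array, with neither normalization nor background subtraction, and GenomeStudio is named as the reading software per the labels. A detection p-value against the negative controls was deposited beside each intensity. All columns of per-sample values were used. Arrays were assigned to control and PTH from the labels. No source says that replicates of different numbers came from separate groups of mice, so p-values measure the spread between these pools only.

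Using limma 3.58.1 in R 4.3.3, neqc applied normexp background correction (fitted from the detection p-values), added an offset of 16, normalized by quantiles and took log2. Probes entered the test if 3 or more of the 6 arrays had a detection p under 0.05. The PTH and control arrays were then compared with lmFit and eBayes across all of these probes, and a gene was taken by its brightest probe and called at an adjusted p under 0.05. Intervals are limma's for single genes, at 95%. The procedure was tested on simulated data. The number of arrays limits the precision.

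Members and lists were chosen with earlier results of these data known. Genes named are those called, the 5 highest and 5 lowest among genes without overlap, and those of the role lists. *Rps6*, the remaining genes without overlap, the genes with wide intervals, discordant probes or a step on the arrays numbered 3, and the older names were added after their values were seen. Promoter sequences are RefSeq's. Arrays were not treated as paired, since deviations of arrays of the same number correlated at 0.06, 0.06 and 0.29 over all genes for numbers 1, 2 and 3, although over the ribosomal protein genes alone they correlated at 0.12, 0.53 and 0.63. Alternatives were other background corrections, normalizations, filters, thresholds and probe rules, a replicate block, a term for the arrays numbered 3, and each array left out. The scaling checks on the arrays numbered 3 were chosen after seeing the data. Some results that these rules would give are not reported here.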

Additional observations from a re-analysis of the deposited data

How the results depend on the processing

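The counts of ribosomal protein genes called higher or lower, 0 and 0, became 1 higher with quantile normalization alone (*Rps24*), and 3 higher and 1 lower at an unadjusted p under 0.05. They were 0 and 0 under the other settings run, including each array left out in turn, whose lowest and highest counts were 0 and 0. The median log2 fold change of these genes minus that of all genes was -0.0272. It was -0.0578 with cyclic loess and -0.0158 with median scaling, which moved the median of all genes to 0.12. Leaving out arrays gave -0.0633 (without PTH replicate 3) to 0.0084 (without control replicate 3), with 0.0064 without PTH replicate 2, so that its sign rests on single arrays. Over the 73 genes, 1020 of 1021 values from 14 alternatives stayed on the same side of the threshold. Of the 1021, 99 differed in sign from the main value, *Rplp1* included where it left its main value of 0. The main value was at most 0.18 in size for those genes. With the replicate number as a block, 0 genes were called higher and 0 lower, and 44 genes were called in all in place of 207. Over all genes, the arrays numbered 3 correlated best with each other and those numbered 1 and 2 did not, a hint from the data and not from the design. Over the ribosomal protein genes alone, those numbered 2 correlated at 0.53, beside 0.63 for number 3. A slide block was not run, because the columns name no slide.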
